A study of Mus musculus with 22 samples.

Results

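Liver cells of mice on chow were compared between the middle of the light phase and the middle of the dark phase. Zeitgeber time 6 (ZT6) lies 6 h after lights on, in the rest phase of the mouse, and ZT18 lies 6 h after lights off, in the phase of activity and feeding. The libraries were chosen by the diet and time in their labels: 5 of the 22 RNA-seq libraries of the series enter the comparison, 2 at ZT6 and 3 at ZT18, across all genes. The animals were aged 20 weeks, were labelled as controls and had no treatment, and the labels give no strain, genotype or sex. The other libraries are used as a setting for these values. They were also fitted in the same model, so they entered the filter on low counts, the scaling and the spread behind each p-value. They are 5 chow libraries at ZT0 and ZT12, and 12 libraries of mice given CDA-HFD, a high-fat diet that lacks choline and is used to induce steatohepatitis with fibrosis. The diet was started at 8 weeks of age and given for 12 weeks by the protocol, although another label of the diet libraries states a longer feeding, and 3 libraries each at ZT6 and ZT18 under it give the test of whether a chow difference depended on diet.

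Most mammalian cells hold a circadian clock in which BMAL1 (encoded by Arntl) and CLOCK activate genes through E-boxes, among them the period and cryptochrome genes, whose products repress that activation. The REV-ERB receptors Nr1d1 and Nr1d2 repress Arntl, the ROR receptors activate it, and the PAR bZIP factors Dbp, Tef and Hlf carry the rhythm to output genes through D-boxes. In liver, feeding, body temperature and adrenal glucocorticoids also set daily rhythms of chaperones, lipid genes and early response genes.

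The cells are labelled HSC, which in liver commonly stands for the retinoid-storing hepatic stellate cell. Stellate genes were rare in these libraries and genes of endothelial cells, which line the sinusoids, were abundant. Lrat, the retinol-esterifying enzyme that defines stellate cells, gave 3.07 and 3.24 CPM (counts per 1000000 counts, scaled by TMM, the trimmed mean of M-values) at ZT6 and 3.16, 1.53 and 1.74 CPM at ZT18. Per kilobase of exon, its means of 0.589 CPM at ZT6 and 0.401 CPM at ZT18 stood beside 398 and 305 CPM for Kdr, a receptor of endothelial cells, and 1.95 and 1.85 CPM for Des, an intermediate filament gene of stellate cells. The 28 endothelial genes of a fixed list summed to 64193 and 61207 CPM at ZT6 and 45208, 44636 and 42991 CPM at ZT18, and the 28 stellate and fibroblast genes to 812 and 627 CPM and 1418, 945 and 1043 CPM. The libraries are therefore described as a mixture of liver cells, in which fewer cells of a type and less RNA per cell cannot be told apart.

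The libraries held 22353585 and 20276265 counts at ZT6 and 24471404, 26918813 and 28590269 at ZT18. Whether each library is a separate animal is not in the labels, and p-values then rest on a spread between libraries that could be technical. The ribosomal RNA gene CT010467.1 took 17.5% and 16.7% of counts at ZT6 and 13.8%, 10.5% and 11.3% at ZT18, and the diet libraries at ZT18 were likewise lower than the other diet libraries. That share and the time of day cannot be told apart. A fit that left out this gene and the mitochondrial ribosomal RNA genes mt-Rnr1 and mt-Rnr2 gave 1045 called genes in place of 1071. It removed only the counts of these genes, so it cannot show whether other genes shift with the share. Replicate 1 of ZT18 and replicate 2 of ZT6 had the highest and the lowest score of the 5 on the second principal component over all libraries, which held 6.45% of the variance. Replicate 2 of ZT6 also carried much more macrophage RNA than replicate 1.

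Of 22409 genes tested, 1071 (4.78%) differed between ZT6 and ZT18 at an adjusted p under 0.05, here named called. There were 410 genes (1.83%) higher at ZT6 and 661 (2.95%) lower at ZT6, and 176 and 459 of them differed by more than 2-fold. Differences are given as log2 of ZT6 over ZT18 ± standard error. This error was derived from the test, as the absolute difference divided by the square root of the F statistic of edgeR's quasi-likelihood test. A positive difference is higher at midday. The median over all genes tested was 0.0098. The CPM values of both groups did not overlap for 1064 of the called genes and for 34.0% of all genes tested. With libraries scaled by their size alone, the median moved to -0.19 and the split became 198 higher and 1238 lower.

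The number of calls rested heavily on 1 library. Without ZT6 replicate 2, which leaves ZT6 with 1 library whose spread is taken from the other groups, 88 genes were called, and without ZT6 replicate 1 475. Leaving out a ZT18 library gave 813 calls without replicate 1, 685 without replicate 2 and 698 without replicate 3. A core of 37 genes was called in the same direction under each of the 15 alternative settings, 18 higher and 19 lower at ZT6. It held the clock genes Nr1d1, Dbp, Cry1 and Wee1, the heat shock genes Dnaja1, Dnajb1 and Hspa1b and the endoplasmic reticulum (ER) chaperones Hsp90b1 and Pdia3.

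**Figure D1:**
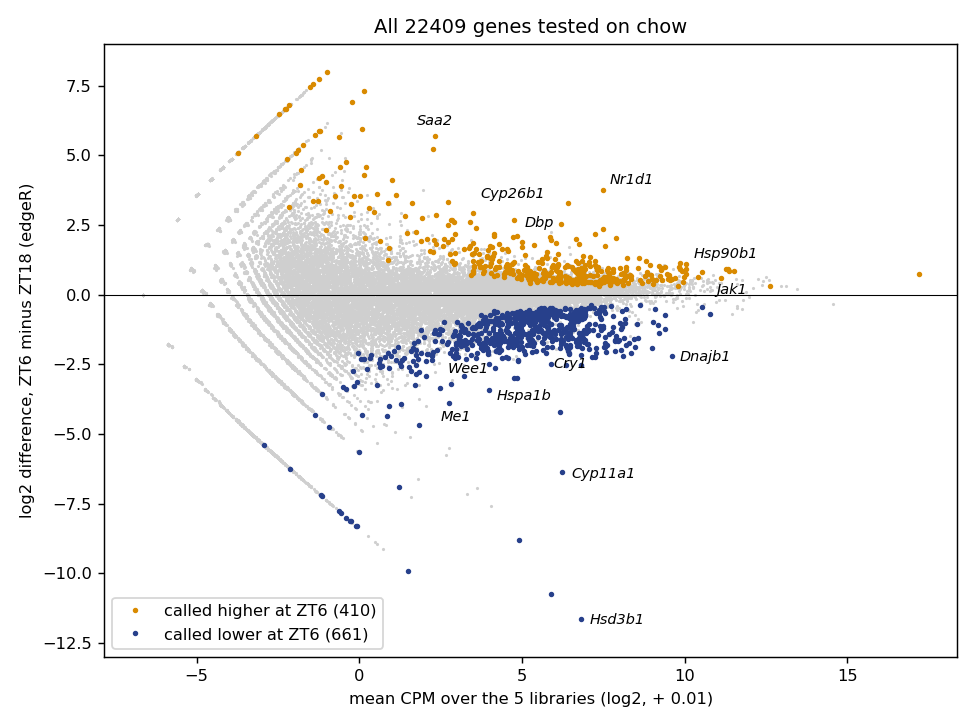
Each point is 1 of the 22409 genes tested, placed by its mean CPM over the 5 chow libraries (log2 axis) and its log2 difference of ZT6 minus ZT18. Orange points are the 410 genes called higher and blue points the 661 called lower at ZT6, with Nr1d1 high among the abundant genes and the adrenal genes Hsd3b1 and Cyp11a1 at the bottom.

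The REV-ERB receptor Nr1d1 had the smallest p of all named genes. Its level was 413 and 393 CPM in the ZT6 libraries and 25.8, 33.5 and 29.7 CPM in the ZT18 libraries. No ZT18 library came near a ZT6 library, and the difference of 3.76 ± 0.25 corresponded to 13.6-fold (adjusted p = 5.69e-08, edgeR's quasi-likelihood test). Nr1d1 lies on chromosome 11 at 98767932 to 98775333 (GRCm38). Nr1d2, the other REV-ERB gene, gave 84.3 and 90.5 CPM and 33.6, 47.2 and 49.6 CPM, 2.01-fold higher at ZT6 (1.01 ± 0.17, adjusted p = 0.00321). Its groups were separate too, and its call was lost only without ZT6 replicate 2. The activating receptor gene Rora was not called: at 46.4 and 39.5 CPM and 66.5, 72.1 and 70.6 CPM, it had a difference of -0.70 ± 0.31. Rorb, also not called, was at under 1 CPM in each of the 5 libraries and differed by 2.14 ± 1.60.

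Among the period and cryptochrome repressors, Per1 and Cry1 were lower at ZT6 and the other 4 of 6 genes were not called, though all 6 values were negative. Cry1, which represses CLOCK and BMAL1 directly, gave 15.1 and 20.9 CPM at ZT6 and 96.5, 66.5 and 68.7 CPM at ZT18. Both midday values lay far under the lowest night value (-2.10 ± 0.26, adjusted p = 0.000332), a 4.30-fold difference. Per1 gave 38.4 and 25.1 CPM and 72.5, 81.2 and 63.5 CPM, again without overlap (-1.19 ± 0.18, adjusted p = 0.00187). Its call was lost without ZT6 replicate 2 (adjusted p = 0.0618). Per2, at 6.97 and 7.81 CPM and 13.7, 30.0 and 28.5 CPM, missed the threshold (-1.70 ± 0.51, adjusted p = 0.0591), and replicate 1 of ZT18 had the lowest of its night values. Cry2 differed by -0.89 ± 0.28, Ciart by -1.28 ± 0.40 and Per3 by -0.57 ± 0.24. The median of the 6 genes was -1.24 against 0.0098 over all genes, and 5 of them were called by DESeq2. By edgeR 5 were likewise called with library size only, with low counts kept and with a mean of 5 CPM required, and 4 with the 2 chow groups alone. With libraries left out, 3 were called without ZT18 replicate 1 or replicate 3 and 1 without ZT6 replicate 2.

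None of the 4 clock activators was called by edgeR, 1 had an unadjusted p under 0.05, and 1 was called by DESeq2. Arntl, the gene of BMAL1, gave 26.9 and 19.8 CPM at ZT6 and 15.7, 25.6 and 20.8 CPM at ZT18, so that the groups overlapped (0.17 ± 0.29). The sign of this value changed with the scaling and without ZT6 replicate 1. Clock differed by -0.13 ± 0.22. Npas2, a relative of Clock, gave 0.156 and 0.446 CPM and 4.29, 0.837 and 3.35 CPM, a separation that missed the threshold (adjusted p = 0.0755). Arntl gave means of 56.1 CPM at ZT0 and 6.73 CPM at ZT12, above and below all 5 libraries compared here.

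Dbp was the called member of the 4 PAR bZIP and Nfil3 genes. Its levels of 47.4 and 59.9 CPM at ZT6 stood above 12.8, 14.1 and 10.4 CPM at ZT18 (2.11 ± 0.24, adjusted p = 0.000273), 4.31-fold apart. Tef gave 19.5 and 37.7 CPM and 36.1, 34.7 and 37.4 CPM and was not called. Replicate 1 of ZT6 was the low one and replicate 2 lay just above the night values. Hlf differed by 0.24 ± 0.72 and Nfil3, a repressor at D-boxes, by -0.51 ± 0.34. The Dec genes Bhlhe40 (-0.37 ± 0.24) and Bhlhe41 (0.86 ± 0.62) were not called, nor was any of the 14 Dec factors and clock modifiers by edgeR. Of these, 1 had an unadjusted p under 0.05 and 1 was called by DESeq2.

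Of 30 clock output genes, 5 were lower at ZT6 (Wee1, Mthfd1l, Tsc22d3, Coq10b and Dtx4) and 2 higher (Pim3 and Tns2). Wee1, a kinase that holds back entry into mitosis, gave 7.55 and 4.91 CPM at ZT6 and 24.6, 40.1 and 26.6 CPM at ZT18. Every night library was more than 3 times the higher midday library (-2.29 ± 0.28, adjusted p = 0.000332). Mthfd1l, an enzyme of mitochondrial folate metabolism, gave 3.96 and 4.69 CPM and 12.3, 13.8 and 15.9 CPM (-1.69 ± 0.25). In the other direction, the survival kinase gene Pim3 gave 379 and 346 CPM and 208, 182 and 174 CPM (0.94 ± 0.12, adjusted p = 0.000332). With ZT6 replicate 2 left out, the counts were 1 higher and 2 lower. The higher count was also 1 without ZT6 replicate 1 and without replicate 2 or 3 of ZT18.

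Promoter sequence (250 bases before the start, RefSeq, GRCm38.p6) is shown for the leading receptor and the called repressors, because E-boxes and their variants are sites through which the clock activators work. E-boxes (CACGTG), E-prime-boxes (CACGTT), D-boxes (TTATGNAA) and ROR elements (TAGGTCA or TGGGTCA) were searched on both strands and are in capitals.
Nr1d1, chr11:98775378-98775627 (minus strand): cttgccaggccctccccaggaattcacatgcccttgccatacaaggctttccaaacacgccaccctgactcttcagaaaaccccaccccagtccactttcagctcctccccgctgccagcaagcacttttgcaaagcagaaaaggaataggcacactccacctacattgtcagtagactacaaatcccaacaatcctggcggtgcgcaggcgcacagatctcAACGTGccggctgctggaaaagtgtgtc
Cry1, chr10:85185055-85185304 (minus strand): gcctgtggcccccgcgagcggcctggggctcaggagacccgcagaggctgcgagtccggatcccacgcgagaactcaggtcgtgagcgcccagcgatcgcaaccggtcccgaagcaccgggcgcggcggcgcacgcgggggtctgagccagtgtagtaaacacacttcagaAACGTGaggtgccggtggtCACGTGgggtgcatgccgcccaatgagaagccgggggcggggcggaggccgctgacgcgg
Per1, the more upstream of 2 starts, chr11:69098699-69098948 (plus strand): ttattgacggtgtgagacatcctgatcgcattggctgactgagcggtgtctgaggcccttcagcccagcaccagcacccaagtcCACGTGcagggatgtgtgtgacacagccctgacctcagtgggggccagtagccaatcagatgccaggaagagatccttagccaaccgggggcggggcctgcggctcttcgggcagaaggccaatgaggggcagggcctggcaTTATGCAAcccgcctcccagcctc
The Cry1 stretch holds an E-box that begins 60 bases before the start and an E-prime-box 79 bases before it. Nr1d1 holds an E-prime-box 28 bases before its start, and Per1 an E-box 166 and a D-box 24 bases before. Of all 32851 promoters, 6.02% hold an E-box, 3.85% an E-prime-box, 3.07% a D-box and 5.38% a ROR element in such a window. The other start of Per1 held none of the motifs in its window, and no E-box was found for the 4 matched REV-ERB and ROR genes. A match describes letters in the window, not binding. Among the other clock genes, Ciart and Tef held an E-box, Cry2 and Rorb an E-prime-box, Per3 a D-box and Nfil3 a ROR element. The table matched 5 of the 6 repressors, all 4 activators, 4 of 5 receptors and all 4 bZIP genes.

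**Figure D2:**
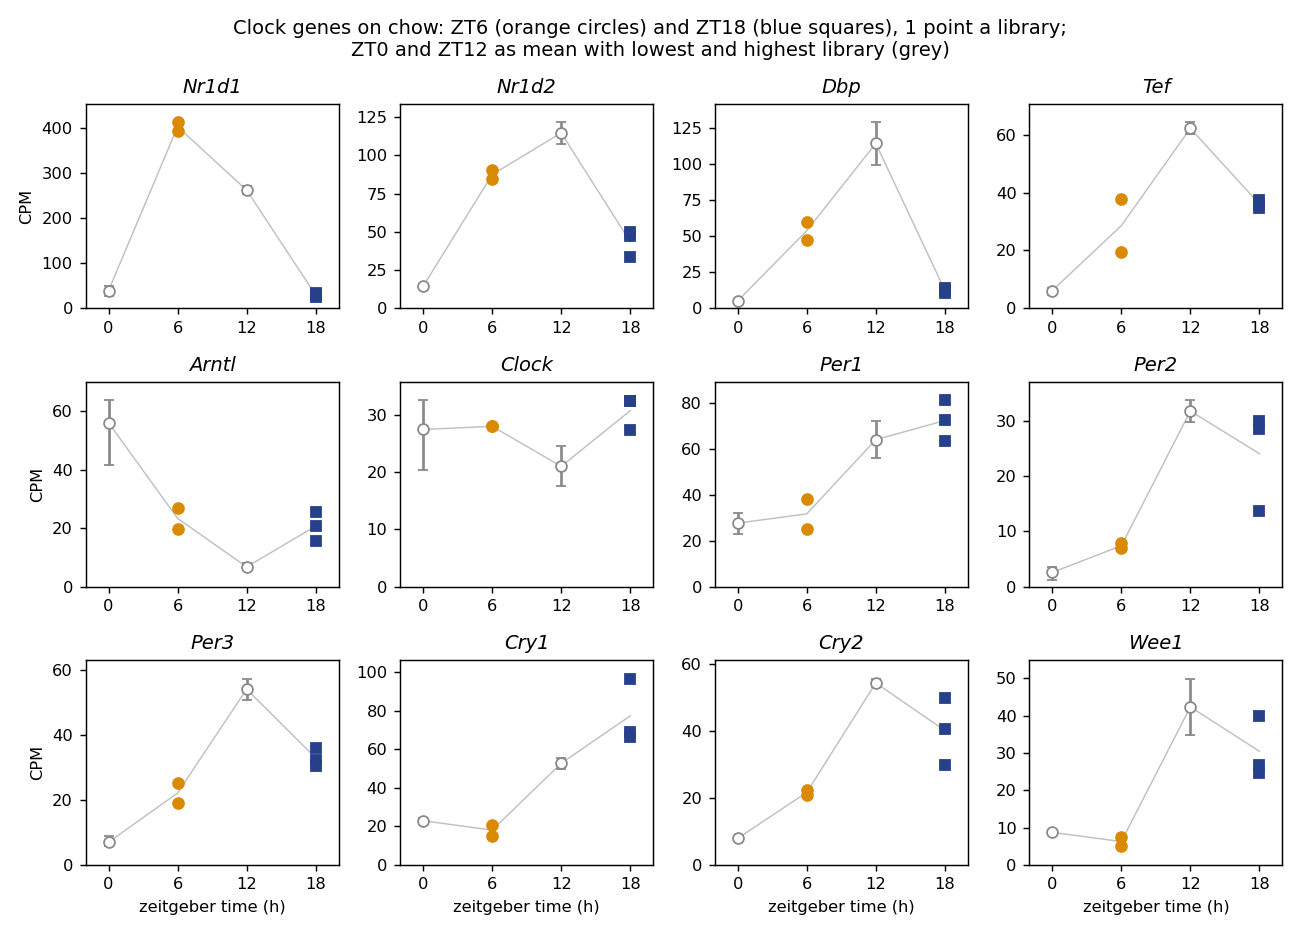
CPM of 12 clock genes (linear axes from 0) by zeitgeber time in the chow libraries, with 1 point for each ZT6 library (orange) and ZT18 library (blue) and the mean with the lowest and highest library for ZT0 and ZT12 (grey). Nr1d1 is high at ZT6 and low at ZT18, Cry1 and Wee1 are the reverse, and the Arntl points of both times overlap.

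Under CDA-HFD the same 2 times gave 82 called genes (0.366%), and the test of the difference between diets called 206 genes (0.919%), 158 of them also called on chow. The interaction count was 35 without chow ZT6 replicate 2, 113 without ZT18 replicate 2 and 124 without ZT18 replicate 3. Nr1d1 averaged 47.1 CPM at ZT6 and 17.7 CPM at ZT18 under diet. Its diet difference of 1.41 ± 0.22 was smaller than the chow difference by 2.35 ± 0.32 (interaction adjusted p = 0.00281). Wee1 differed by 0.15 ± 0.22 under diet (interaction adjusted p = 0.00414), Cry1 by -0.58 ± 0.21 (interaction adjusted p = 0.0307) and Per1 by -0.11 ± 0.15 (interaction adjusted p = 0.0313). Dbp differed by 1.24 ± 0.22 under diet, and its interaction was not called (adjusted p = 0.212). The cell mixture also differed between diets. At ZT6 the endothelial list summed to 64193 and 61207 CPM on chow and to 3260 to 5211 CPM under diet. The T, NK and B cell list summed to 1369 and 1219.6 CPM and to 7630 to 8946 CPM. For every interaction given here, a changed rhythm within cells and a changed mixture of cells cannot be told apart.

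Heat shock chaperones, which refold proteins in the cytosol and mitochondria, were more often lower than higher at midday. Of 23 genes, 9 were lower at ZT6 and 3 higher, with a median of -0.52. Hspa1b, an inducible HSP70 gene on chromosome 17 at 34956436 to 34959238, gave 5.15 and 5.41 CPM at ZT6 and 43.0, 41.5 and 41.1 CPM at ZT18. The values were tight within each time and 7.92-fold apart (-2.99 ± 0.42, adjusted p = 0.000835). Its near-identical neighbour Hspa1a, with which reads can be shared, gave 92.5 and 99.6 CPM and 331, 393 and 409 CPM (-1.97 ± 0.38). The HSP40 co-chaperone Dnajb1 gave 269 and 227 CPM and 914, 1259 and 1243 CPM (-2.20 ± 0.28, adjusted p = 0.000349). Dnaja1, another HSP40 protein, gave 135 and 84.8 CPM and 443, 487 and 480.1 CPM (-2.10 ± 0.27). All night libraries of these 4 genes exceeded all midday libraries.

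The constitutive HSP70 gene Hspa8 fell by 1.09 at ZT6, the inducible HSP90 gene Hsp90aa1 by 1.13, Hsph1, an exchange factor of HSP70, by 1.51, mitochondrial Hspd1 by 0.57 and Hsf1, the master regulator of the heat shock response, by 0.71. Against this direction, the small heat shock protein gene Hspb1 gave 86.9 and 114 CPM at ZT6 and 46.0, 33.7 and 43.5 CPM at ZT18 (1.29 ± 0.30). The HSP90 cofactors Stip1 (0.83 ± 0.19) and Ahsa1 (0.60 ± 0.16) were higher as well. With the fit lacking ZT6 replicate 2, 3 genes were called lower and 0 higher. The higher count also fell to 1 without ZT6 replicate 1 and to 1 without ZT18 replicate 1.

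The Hspa1b promoter is shown because it holds the letters of a heat shock element (GAANNTTC, in capitals, read on both strands), 104 bases before the start.
Hspa1b, chr17:34959239-34959488 (minus strand): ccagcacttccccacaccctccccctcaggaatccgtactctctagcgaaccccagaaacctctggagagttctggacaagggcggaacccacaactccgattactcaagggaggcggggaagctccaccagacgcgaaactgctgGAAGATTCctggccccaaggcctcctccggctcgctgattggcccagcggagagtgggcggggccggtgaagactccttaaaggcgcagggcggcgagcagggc
Such an element stood in the window of 4 of the 6 lower genes that the promoter table matched (Hspa1a, Hspa1b, Dnaja1 and Hspd1), of 7 of 18 matched genes of the list, and of 6.69% of all promoters.

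ER chaperones went the other way. Of 28 genes of ER folding and the unfolded protein response, 11 were higher at ZT6 and none lower, with a median of 0.44. Hsp90b1, the HSP90 of the ER, on chromosome 10 at 86690209 to 86705509, gave 1376 and 1759 CPM at ZT6 and 698, 718 and 752 CPM at ZT18. The lower midday library was nearly double the highest night library (1.12 ± 0.14, adjusted p = 0.000332). Hspa5, the ER HSP70 known as BiP, gave 1905 and 1539.9 CPM and 1014, 1132 and 1162 CPM (0.64 ± 0.11, adjusted p = 0.00302). The disulfide isomerases Pdia3 (0.91 ± 0.13), Pdia4 (0.88 ± 0.18) and Pdia6 (0.99 ± 0.16) were higher. So were the lectin chaperones Calr (0.89 ± 0.14) and Canx (0.66 ± 0.13) and the cofactors Sdf2l1, Creld2, Manf and Dnajb11, at 0.65 ± 0.13 to 0.99 ± 0.17. The stress regulators of the same list were not called: Atf4 differed by -0.17 ± 0.10, Ddit3 by -0.26 ± 0.23, Xbp1 by 0.43 ± 0.15 and Atf6 by -0.05 ± 0.18. Also not called were Hyou1, Dnajb9, Dnajc3, Herpud1, Sel1l and Edem1, genes of ER folding and degradation. At the other chow times Hsp90b1 averaged 511 CPM (ZT0) and 389 CPM (ZT12) and Hspa5 501 CPM and 393 CPM, so both were highest at ZT6 among the 4 group means. Once ZT6 replicate 2 was left out, 5 genes of the list were called.

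Promoters of the leading pair are printed to show a shared element. The ER stress element, CCAAT then 9 bases then CCACG on either strand, was searched after the values of these genes were seen and is in capitals.
Hspa5, chr2:34771840-34772089 (plus strand): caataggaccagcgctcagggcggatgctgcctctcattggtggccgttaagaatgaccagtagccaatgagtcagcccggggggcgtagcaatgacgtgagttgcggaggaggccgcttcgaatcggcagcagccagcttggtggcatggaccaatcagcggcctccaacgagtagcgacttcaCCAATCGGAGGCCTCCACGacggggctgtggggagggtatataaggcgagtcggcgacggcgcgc
Hsp90b1, chr10:86705445-86705694 (minus strand): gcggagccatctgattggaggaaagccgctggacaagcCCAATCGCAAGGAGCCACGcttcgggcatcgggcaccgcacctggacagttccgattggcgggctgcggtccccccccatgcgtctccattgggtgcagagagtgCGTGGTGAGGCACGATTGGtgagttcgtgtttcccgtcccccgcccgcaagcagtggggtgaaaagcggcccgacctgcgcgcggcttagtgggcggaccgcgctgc
The element stood 65 bases before the start of Hspa5, and Hsp90b1 held 2, beginning 212 and 107 bases before. It was found in 6 of 10 matched genes called higher at ZT6 (Hspa5, Hsp90b1, Pdia6, Creld2, Calr and Canx), in 1 of 15 matched genes of the list that were not called (Dnajc3), in none of the 18 matched heat shock genes and in 0.113% of all promoters.

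The ZT6 minus ZT18 difference of several ER chaperones was not the same on chow and under diet, in libraries of unlike cell mixture. Hspa5 was lower at ZT6 under diet (-0.66 ± 0.10, adjusted p = 0.00242), which differed from chow by 1.30 ± 0.15 (interaction adjusted p = 0.000521). Hsp90b1 differed by -0.47 ± 0.12 under diet (interaction adjusted p = 0.000521). The interaction was called for 11 of the 28 genes, against 0.919% of all genes. For heat shock genes it was called for 7 of 23, among them Dnajb1, which differed by -0.52 ± 0.23 under diet (interaction adjusted p = 0.0261), and Hspa1b, which differed by -0.78 ± 0.32 (interaction adjusted p = 0.0406).

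**Figure D3:**
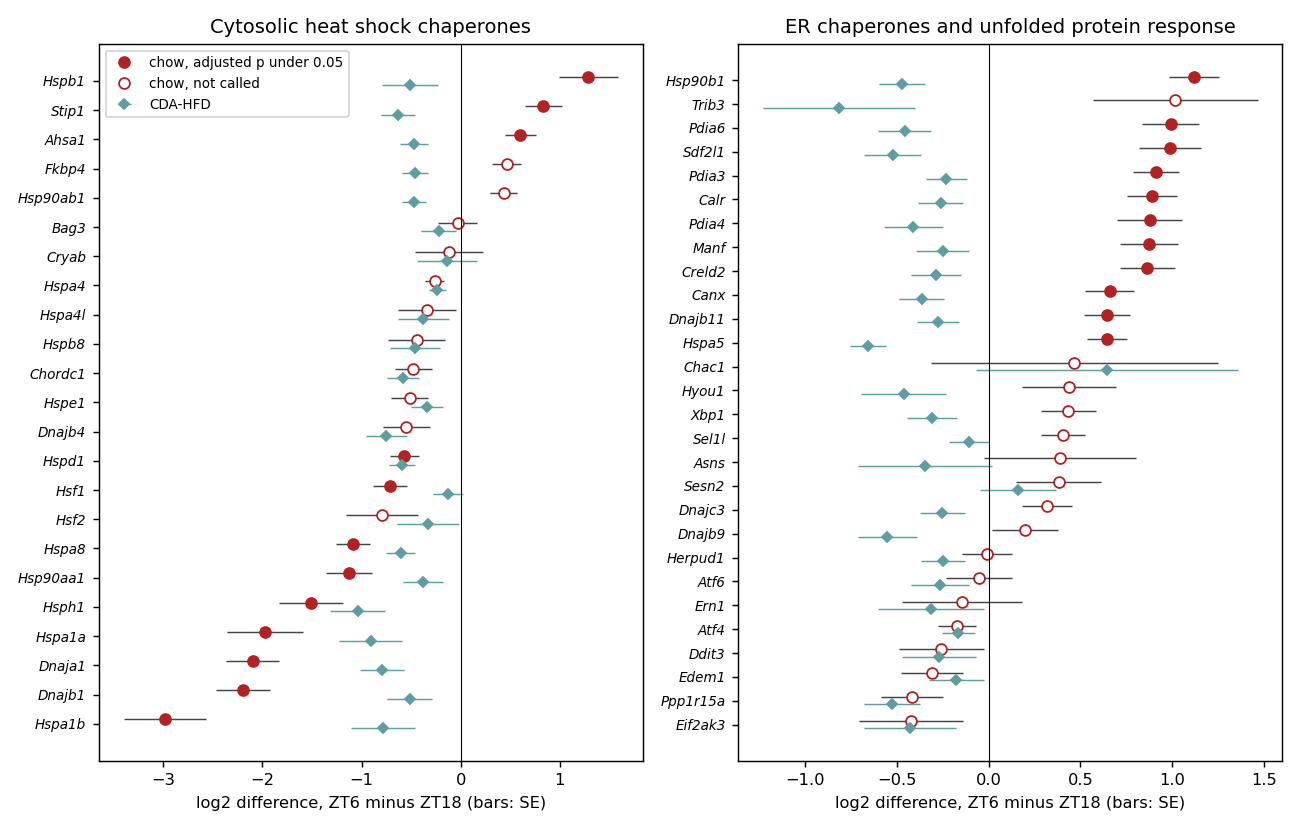
Log2 difference of ZT6 minus ZT18 with its standard error for 23 cytosolic heat shock genes (left) and 28 ER genes (right), on chow (circles, filled where called) and under CDA-HFD (diamonds). On chow Hspa1b, Dnajb1 and Dnaja1 lie farthest below 0 on the left, and the 11 filled ER genes on the right lie above 0 while their diamonds lie below it.

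Immediate early genes, which cells transcribe within minutes of a stimulus, were lower at midday. Of 27 genes, 11 were lower at ZT6 and none higher, with a median of -0.84. Nr4a1, an orphan nuclear receptor, gave 255 and 132 CPM at ZT6 and 766, 711 and 682 CPM at ZT18 (-1.90 ± 0.30, adjusted p = 0.00228). The AP-1 subunit Fosl2 gave 62.2 and 46.5 CPM and 159, 165 and 155 CPM (-1.56 ± 0.24). Btg2, which restrains proliferation, gave 400.4 and 352 CPM and 838, 836 and 948 CPM (-1.22 ± 0.21). In these and in Klf6 (-1.37 ± 0.23), Klf2 (-1.14 ± 0.22), Egr3 (-1.59 ± 0.34) and the phosphatase gene Dusp5 (-1.37 ± 0.24) every night library was above every midday library. Nr4a3, Fosb, Jund and Dusp1 were lower too. Fos, at 1602 and 2267 CPM and 2421, 2018 and 2249.6 CPM, was not called (-0.20 ± 0.26), nor was Jun (-0.56 ± 0.27) or Egr1 (0.14 ± 0.25). EdgeR called none of the 27 without ZT6 replicate 2, 5 were called with the chow libraries alone, and the interaction with diet was called for none.

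Among 30 inflammatory mediators 3 (10%) were called, against 4.78% of all genes tested. Tnf and Tnfaip3, a brake on NF-kB signalling, were lower and the chemokine Cxcl10 higher at ZT6. Tnf gave 31.4 and 29.6 CPM at ZT6 and 116, 117 and 134 CPM at ZT18 (-2.00 ± 0.46, adjusted p = 0.0166). Tnfaip3 gave 72.8 and 57.7 CPM and 237, 289.6 and 291 CPM (-2.06 ± 0.37). Cxcl10 gave 139.6 and 157 CPM and 91.3, 82.1 and 90.5 CPM (0.75 ± 0.21). Night values were thus all above the midday values for the first pair and all below them for Cxcl10. None of the 3 was called without ZT6 replicate 2. Tnf was also lost without ZT6 replicate 1, and Cxcl10 without each of the 5 libraries in turn and with the ribosomal RNA genes left out.

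Many genes of T and natural killer (NK) cells were also lower at midday. Of 28 T, NK and B cell genes, 11 were lower at ZT6 and none higher, with a median of -1.28, and their summed level was 1369 and 1219.6 CPM at ZT6 and 2969, 2936 and 3004 CPM at ZT18. The co-stimulatory receptor Cd28 gave 62.9 and 41.4 CPM and 229, 216 and 216 CPM (-2.08 ± 0.36, adjusted p = 0.00321). Lck, the kinase of the T cell receptor, gave 125 and 86.6 CPM and 308, 353 and 356 CPM (-1.68 ± 0.33). Klrk1, the activating NK receptor NKG2D, gave 48.7 and 33.3 CPM and 150.3, 141 and 147 CPM (-1.83 ± 0.34). Midday and night libraries were separate in all 3. Cd3g, Trac, Cd2, Cd5, Nkg7, Klrb1c, Prf1 and Tbx21 were lower as well, at -1.93 ± 0.47 to -1.33 ± 0.32. The T and NK cell genes Cd3d, Cd3e, Cd4, Cd8a, Cd8b1, Ncr1, Gzma, Gzmb and Eomes were not called. The B cell receptor component Cd79a was not called either (-0.40 ± 0.34). Of the 28 values 24 were negative and 4 positive. The chow libraries at ZT0 covered a range of 1212 to 3802 CPM for the sum, so the level of these genes varied within 1 time by more than between the times compared. The count of 11 became 5 without ZT6 replicate 1, 0 without ZT6 replicate 2 and 6 without either replicate 2 or replicate 3 of ZT18. With the chow libraries alone it was 1. The interaction with diet was called for 3 of the 28.

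**Figure D4:**
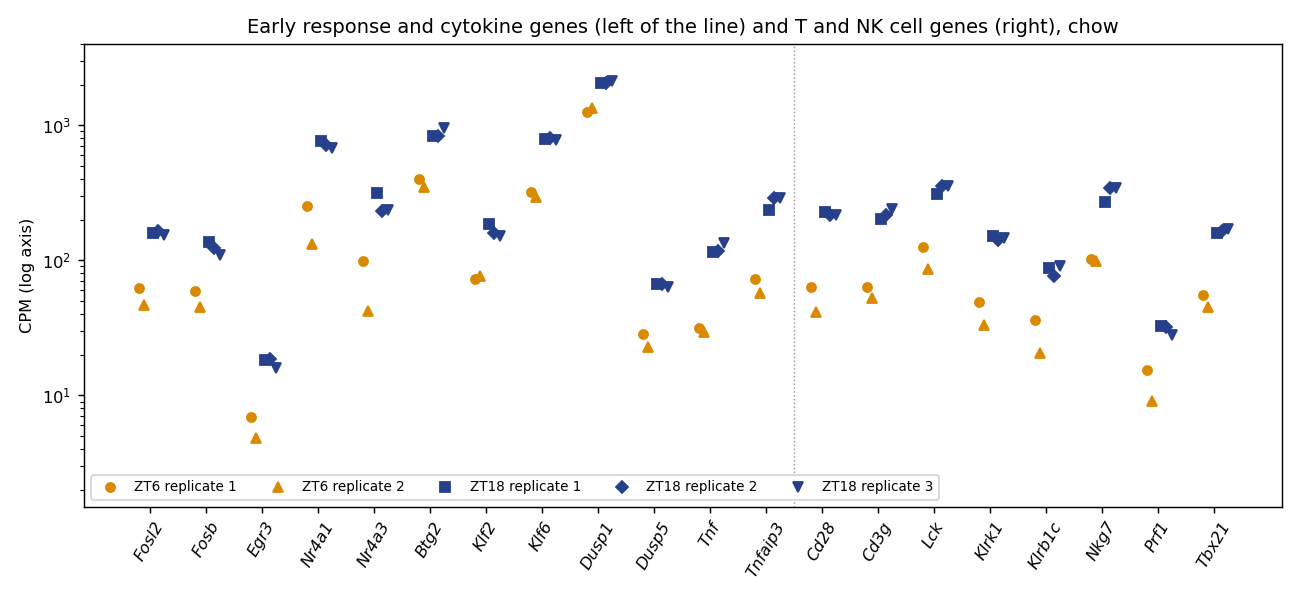
CPM (log axis) of 12 early response and cytokine genes and of 8 T and NK cell genes in each of the 5 chow libraries, ZT6 in orange and ZT18 in blue. All genes shown were picked from members called lower at ZT6, and for each both midday libraries lie under the 3 night libraries. Members that were not called, such as Fos, Jun, Egr1, Cd3e and Cd79a, are left out.

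Many macrophage and Kupffer cell genes were higher at midday, on the strength of 1 library. Of 28 genes 14 were higher at ZT6 and 1 lower, with a median of 1.71. Their sum was 1883 and 4938 CPM in the ZT6 libraries and 1529.6, 1428 and 1398 CPM in the ZT18 libraries. The Kupffer cell lectin Clec4f gave 184 and 689 CPM and 96.4, 124 and 97.6 CPM (2.04 ± 0.47, adjusted p = 0.0160). C1qb, a chain of complement C1q, gave 133 and 439.8 CPM and 65.2, 63.3 and 60.9 CPM (2.18 ± 0.43). Cd5l, a secreted macrophage protein, gave 147 and 549 CPM and 85.9, 58.1 and 57.4 CPM (2.37 ± 0.52). In each of them replicate 2 of ZT6 was more than 3 times replicate 1, and replicate 1 was nearer to the night libraries. None of the 14 was called without replicate 2 of ZT6, and 9 were called without ZT18 replicate 3. The monocyte receptor Ccr2 was lower at ZT6, at 27.2 and 28.6 CPM against 71.3, 73.0 and 94.1 CPM (-1.51 ± 0.29).

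Several of the largest differences lay in innate immune and acute phase genes that were high in that same library. The acute phase genes Saa1 and Saa2 gave 4.48 and 18.6 CPM and 2.71 and 21.9 CPM at ZT6 against 0, 0.910 and 0 CPM and 0.0416, 0.328 and 0.308 CPM at ZT18. Their differences were 5.21 ± 1.24 and 5.71 ± 1.12, with adjusted p of 0.211 for Saa1 and 0.164 for Saa2 without ZT6 replicate 2 by edgeR. C5ar1, the receptor of complement C5a, gave 8.69 and 20.3 CPM and 1.87, 1.24 and 1.20 CPM (3.34 ± 0.47, adjusted p = 0.000835) and remained called in every alternative, the adjusted p reaching 0.0317. The scavenger receptor Marco (2.67 ± 0.65), the Fc receptor Fcgr1 (2.69 ± 0.62), the lectin Clec4n (2.85 ± 0.57) and the formyl peptide receptor Fpr1 (2.67 ± 0.62) were called, and not without ZT6 replicate 2. Of 30 hepatocyte genes 5 were higher at ZT6 (Hp, Hpx, Fgb, Fgg and Glul) and Fabp1 was lower. Haptoglobin, Hp, gave 17.4 and 48.1 CPM and 4.58, 9.43 and 7.83 CPM (2.17 ± 0.38), while Alb, at 93.2 and 146 CPM and 191, 141 and 132 CPM, was not called. Without ZT6 replicate 2 none of these 5 was called higher, and 3 were without ZT18 replicate 3.

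**Figure D5:**
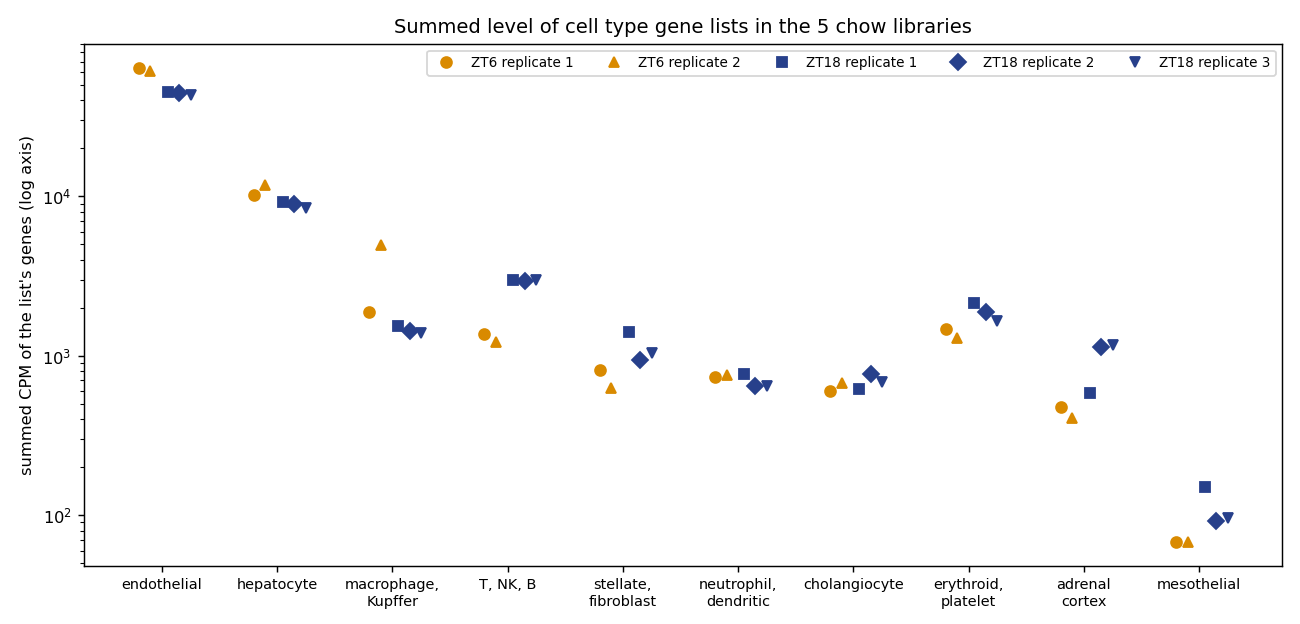
Summed CPM (log axis) of the genes of 10 cell type lists in each of the 5 chow libraries. The macrophage sum is highest in ZT6 replicate 2, the T, NK and B cell sum is higher in all 3 ZT18 libraries, and the adrenal sum is highest in replicates 2 and 3 of ZT18.

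Endothelial genes were modestly higher at midday: 5 of 28 were called, all higher at ZT6, with a median of 0.53, and all 28 values were positive. The lymphatic and sinusoidal hyaluronan receptor Lyve1 gave 874 and 829 CPM and 398, 436 and 432 CPM (1.01 ± 0.20, adjusted p = 0.00615). Stab1, a scavenger receptor of sinusoidal endothelium, gave 4105 and 3886 CPM and 2363, 2172 and 2153 CPM (0.84 ± 0.23). Pecam1 (0.65 ± 0.18), Flt4 (0.73 ± 0.20) and Cd36 (0.57 ± 0.15) completed the called members. All night libraries lay below all midday libraries for the 5. By edgeR 1 of the 28 was called with library size only, and 15 with low counts kept. The count was 2 with the chow libraries alone and 2 with a replicate block. Of 28 stellate and fibroblast genes 3 (10.7%) were called, against 4.78% of all genes tested. The ectonucleotidase gene Nt5e (-1.41 ± 0.28) and Thy1 (-1.37 ± 0.35), which fibroblasts share with T cells, were lower at ZT6. Neither was called without ZT6 replicate 1 or replicate 2, and Thy1 was also lost without ZT18 replicate 2 or replicate 3. Ngfr was called higher on 1 and 8 raw counts at ZT6 and 0 in each ZT18 library, and not without ZT6 replicate 2 or any ZT18 library. The endothelial count was 1 without ZT6 replicate 1 or without any 1 of the ZT18 libraries, 0 without ZT6 replicate 2 and 20 with the 2 chow groups fitted alone.

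Of 30 collagen and matrix genes 3 (10%) were called, against 4.78% of all genes tested. All 3 were higher at ZT6: Col4a1, Col4a2 and Sparc. Col4a2, a chain of type IV collagen, gave 640.0 and 565 CPM at ZT6 and 237, 246 and 237 CPM at ZT18 (1.33 ± 0.23, adjusted p = 0.00324), and its partner Col4a1 gave 438 and 397 CPM and 210.3, 202 and 213 CPM (1.00 ± 0.25). The matrix protein gene Sparc gave 3419 and 3439 CPM and 1923, 1766 and 1762 CPM (0.92 ± 0.18). Midday values were above all night values in the 3, yet the list's median was -0.60, and members such as Col1a1, a chain of fibrillar type I collagen, had negative values that were not called (-0.65 ± 0.47). Of 24 vasoactive, coagulation and fibrinolysis genes 1 (4.17%) was called, Edn1. Of 32 TGF-beta and BMP genes 2 (6.25%) were called, Acvrl1 and Smad3, so both shares were near the 4.78% over all genes. Edn1, the vasoconstrictor endothelin-1, gave 19.8 and 35.5 CPM and 8.41, 6.30 and 10.3 CPM (1.73 ± 0.37). It differed by -0.61 ± 0.34 under diet (interaction adjusted p = 0.0307). Edn1 was not called without ZT6 replicate 2 (adjusted p = 0.228, edgeR), nor was Col4a1 without any 1 of the 5 libraries or with library size only. The BMP9 receptor Acvrl1 (0.57 ± 0.16) was higher and Smad3 (-0.51 ± 0.15) lower, and neither was called once any 1 of the 5 libraries was left out.

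Interferon-stimulated genes had 5 of 30 members higher at ZT6 (Bst2, Irf9, Oas1a, Oasl2 and Ifi44) and none lower, with a median of 0.51. By edgeR the higher count was 1 with library size only and 12 with low counts kept. Oas1a gave 52.5 and 45.6 CPM and 27.5, 24.2 and 19.4 CPM (1.05 ± 0.23), and Bst2, also called tetherin, 349 and 359 CPM and 259.7, 233 and 218 CPM (0.58 ± 0.14). These groups were separate, but the count was 0 by edgeR without either ZT6 library, 2 without ZT18 replicate 1 or replicate 2, 1 without ZT18 replicate 3 and 10 by DESeq2. Jak1, a kinase of interferon and interleukin receptors, was higher at 1908 and 2106 CPM against 1161, 1132 and 1145 CPM (0.81 ± 0.10, adjusted p = 0.000332). It differed by -0.10 ± 0.09 under diet (interaction adjusted p = 0.00427).

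Genes of fatty acid synthesis and oxidation had calls in opposite directions. Of 15 genes of fatty acid synthesis 3 (20%) were lower at ZT6, and of 20 genes of fatty acid oxidation 2 (10%) were higher. Over all genes tested 4.78% were called. Values were negative for 12 and positive for 3 synthesis genes, and positive for 13 and negative for 7 oxidation genes. Fatty acid synthase, Fasn, gave 11.5 and 13.3 CPM at ZT6 and 30.2, 31.5 and 27.1 CPM at ZT18 (-1.25 ± 0.22, adjusted p = 0.00348). Me1, malic enzyme, which supplies NADPH, gave 0.729 and 0.726 CPM and 6.66, 11.8 and 14.0 CPM (-3.89 ± 0.80), and the desaturase Scd2 differed by -1.01 ± 0.27. Cpt1a, which brings fatty acids into mitochondria, gave 144 and 152 CPM and 82.5, 81.2 and 72.7 CPM (0.91 ± 0.17), and the carnitine carrier Slc25a20 differed by 0.67 ± 0.17. Night libraries exceeded midday libraries for the 3 called synthesis genes and fell short of them for the 2 called oxidation genes. Over the full lists, groups were separate for 10 of 15 synthesis and 9 of 20 oxidation genes, against 34.0% of all genes tested. The list medians were -0.70 for synthesis and 0.08 for oxidation. In cholesterol metabolism the regulator Srebf2 (-0.87 ± 0.14) and the desaturase Sc5d (-0.67 ± 0.13) were lower at ZT6. None of these 7 genes was called by edgeR without ZT6 replicate 2. Without ZT6 replicate 1 the counts for synthesis and oxidation were 1 each, and oxidation also had 1 without ZT18 replicate 1 or replicate 3.

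Splicing genes had 7 of 20 members lower at ZT6 and 1, Srsf2, higher. Clk1, a kinase of splicing factors, gave 164 and 126 CPM at ZT6 and 318, 347 and 352 CPM at ZT18, separated by time (-1.23 ± 0.15, adjusted p = 0.000332). Tra2a (-1.08 ± 0.17), Tra2b (-0.71 ± 0.12), Srsf7 (-0.59 ± 0.10), Ddx5 (-0.46 ± 0.09), Rbm39 (-0.51 ± 0.11) and Clk4 (-0.54 ± 0.13) were the other lower members. The lower count was 4 without ZT6 replicate 1 and 1 without replicate 2. Of 20 glucocorticoid-induced genes 4 were lower (Per1, Tsc22d3, Dusp1 and Pik3ip1) and the metallothioneins Mt1 and Mt2 higher. Tsc22d3, the glucocorticoid-induced leucine zipper, gave 123 and 132 CPM and 266, 320.5 and 275 CPM (-1.17 ± 0.20), whereas Fkbp5, at 66.2 and 53.4 CPM and 51.8, 80.0 and 77.3 CPM, was not called (-0.22 ± 0.28). Klf11 was 2.60-fold higher at ZT6, at 29.2 and 25.4 CPM and 11.03, 9.87 and 10.6 CPM (1.38 ± 0.23), in contrast to its relatives Klf2 and Klf6. Of the 20 p53 targets, Gadd45g was higher (1.19 ± 0.19) and Btg2, Gadd45b (-1.28 ± 0.36) and Trp53inp1 (-0.67 ± 0.13) lower. Without ZT6 replicate 2 the called members were 0 of the p53 targets by edgeR, 1 lower glucocorticoid-induced gene, and Klf11 but neither Klf2 nor Klf6.

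Genes of the adrenal cortex, which make steroid hormones, appeared in the night libraries. Of 12 genes 5 were lower at ZT6. Hsd3b1 gave 2 and 0 raw counts at ZT6 and 79.2, 231 and 252 CPM at ZT18. Cyp21a1 gave 1 and 1 raw counts at ZT6 and 39.8, 122 and 137 CPM at ZT18, and Cyp11b1 2 and 2 raw counts and 20.2, 64.8 and 66.3 CPM. All 3 genes encode enzymes of corticoid synthesis and were close to absent at midday. Star, which brings cholesterol into mitochondria, gave 9.47 and 3.07 CPM and 51.0, 131 and 166 CPM (-4.20 ± 1.20). Cyp11a1, which starts steroid synthesis, gave 1.09 and 1.90 CPM and 72.6, 163 and 138 CPM (-6.38 ± 1.24). Replicate 1 of ZT18 held the least of each among the night libraries. At the other chow times Hsd3b1 averaged 0 CPM at ZT0 and 46.0 CPM at ZT12. None of the 5 was called by edgeR without either ZT6 library, and 2 were without replicate 2 or replicate 3 of ZT18. How tissue was taken is not given in the sources used here, and the part of other tissue in these values was not tested.

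Some genes with large differences belong to no list. Cyp26b1, which breaks down retinoic acid, gave 330.1 and 35.3 CPM at ZT6 and 23.9, 14.5 and 17.96 CPM at ZT18 (3.28 ± 0.84). Replicate 1 of ZT6 alone was high, and the difference was 0.92 without it, no longer called. Cnmd, chondromodulin, an inhibitor of vessel growth, gave 13.1 and 34.0 CPM and 1.67, 3.82 and 3.80 CPM (2.92 ± 0.64). Lower at ZT6 were the membrane protein gene Itm2a (0.989 and 0.726 CPM and 14.8, 4.62 and 6.77 CPM), the matrix gene Aspn (1.46 and 0.893 CPM and 10.4, 10.7 and 11.4 CPM) and Cpe, carboxypeptidase E (8.07 and 3.07 CPM and 28.2, 53.7 and 51.0 CPM). Their differences were -3.33 ± 0.51, -3.20 ± 0.81 and -2.99 ± 0.69, and no night library overlapped a midday library. Cnmd, Itm2a, Aspn and Cpe were not called without ZT6 replicate 2, with adjusted p from 0.0502 for Itm2a to 0.264 for Aspn by edgeR.

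The core of 37 genes also held members that stand in none of the lists and were picked after their values were seen. The insulin receptor gene Insr gave 165 and 145 CPM at ZT6 and 62.5, 61.3 and 75.0 CPM at ZT18 (1.22 ± 0.19). Hsd11b1, which regenerates active glucocorticoid, gave 12.9 and 13.5 CPM and 38.0, 37.1 and 41.3 CPM (-1.56 ± 0.22). Csf2ra, a subunit of the GM-CSF receptor, gave 9.42 and 14.2 CPM and 1.92, 4.62 and 3.08 CPM (1.88 ± 0.27). Insr and Csf2ra were thus higher at midday and Hsd11b1 at night. The glutamine carrier Slc1a5 (-1.87 ± 0.28), the signalling regulator Rgs2 (-1.58 ± 0.22), the small GTPase Gem (-2.16 ± 0.30) and Creb1 (-0.84 ± 0.14), a transcription factor of the cAMP response, were lower at ZT6.

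Further groups had at most 2 calls each, against a share of 4.78% called over all genes tested. Of 29 ribosomal protein genes 1 was called, Rps27 (-0.91 ± 0.25), with a median of -0.02. Of 28 nuclear-encoded respiratory chain genes 2 were higher at ZT6, Uqcrq (0.42 ± 0.10) and Cox5a (0.46 ± 0.12), and DESeq2 called 9. Of the 28 values 25 were positive, with a median of 0.22, and 13 genes had an unadjusted p under 0.05 by edgeR. Their groups were separate for 19 genes, against 34.0% of all genes tested. Mcm3, a subunit of the replicative helicase, was called among 30 cell cycle genes (0.43 ± 0.12), and the mucin Muc1 (1.36 ± 0.35) among 20 cholangiocyte genes. Of 18 hypoxia genes 2 (11.1%) were called, both higher at ZT6: the glycolytic activator Pfkfb3 (0.51 ± 0.14) and P4ha1 (1.21 ± 0.29). Each of these calls, Rps27 included, was lost without ZT6 replicate 2. Muc1 and Pfkfb3 were lost without each of the 5 libraries in turn, and P4ha1, Mcm3 and Rps27 also without ZT6 replicate 1, ZT18 replicate 1 and ZT18 replicate 2. Cox5a was lost without each library but ZT18 replicate 1, and Uqcrq also without ZT18 replicate 3. The granule gene Mpo was called higher on 28 and 29 raw counts at ZT6 and 2, 0 and 0 at ZT18, a call lost without any 1 of the 5 libraries. None of 8 mitochondrially encoded genes was called by edgeR with TMM scaling over all libraries, at a median of -0.43, with 4 at an unadjusted p under 0.05 and 1 called by DESeq2. Other edgeR settings called 4 of them lower at ZT6 with library size only, 5 without a filter on low counts, 2 with the 2 chow groups alone, and 1 each at a mean of at least 5 CPM and with the chow libraries alone. Under diet their median was -1.96 and the interaction was called for 7 of 8. None of 16 circadian and feeding genes of hepatocytes was called by edgeR or DESeq2, and 1 had an unadjusted p under 0.05.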

How the data were processed

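RNA-seq libraries of liver cells labelled HSC were prepared from total RNA and sequenced on an Illumina instrument, per the labels' protocols. The authors deposited raw counts per gene symbol, 1 column for each of 22 libraries, and these deposited counts were used. Per the submitters' processing notes, STAR 2.7.9a, HTSeq and DESeq2 were used with GRCm38 (mm10). Neither annotation nor strand setting is given in the sources used here, so overlapping genes cannot be told apart. A normalised table from the authors was not used. Replicates of the 2 groups differed by more than counting noise (their chi-square, divided by its degrees of freedom, was 17.5 to 35.1). This cannot show whether they are separate animals.

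Genes were filtered with edgeR's filterByExpr over 8 groups, which kept 22409 of 55367 symbols. Counts were scaled by TMM and fitted in 1 quasi-likelihood model with a mean for each group (edgeR 4.0.16, limma 3.58.1, R 4.3.3). The contrasts were ZT6 minus ZT18 on chow, the same under diet, and their difference. Adjusted p-values are Benjamini-Hochberg values over all genes tested, and a gene was called at an adjusted p under 0.05. The model was tested on simulated data of 21102 genes. Of these, 200 were changed, all with a mean over 4 CPM, so that rarer genes are not covered. The chow contrast recovered 49% of 2-fold and 94% of 4-fold changes with 5.30% false calls, and the interaction 22% and 83% with 2.78%. Each gene was drawn independently, so shared differences between replicates, such as those in macrophage RNA, were not simulated. The share of false calls in the real data could differ.

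Genes were named by rule: the 10 largest differences in each direction and the 10 smallest p-values among called genes whose log2 CPM averaged 2 or more and whose groups were separate, all core clock genes, up to 4 called members of each other list and the first markers of each cell type. Other list members and genes named beside them were chosen after their values were seen. The comparison and the 41 gene lists were chosen with earlier results of these data known. Alternatives were other scalings and filters, DESeq2 1.42.0, fewer groups in the model, a replicate block and leaving out each library in turn. Leaving out the ribosomal RNA genes and the ER stress element were chosen after seeing the data. Coordinates are GENCODE gene models of GRCm38, which held 53365 of the symbols. Some members of the lists are not reported here by name.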

Additional observations from a re-analysis of the deposited data

Results flagged for a closer look

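For 15 genes among the core clock genes and those named for the largest differences or smallest p-values, the difference between ZT6 and ZT18 was not the same on chow and under diet, by the edgeR interaction test at an adjusted p under 0.05. The chow minus diet value was positive for Saa2 (6.67), C5ar1 (4.15), Clec4n (3.32), Nr1d1 (2.35), Hsp90b1 (1.59), Pim3 (1.28) and Jak1 (0.90). It was negative for Itm2a (-3.64), Wee1 (-2.44), Hspa1b (-2.20), Dnajb1 (-1.68), Cry1 (-1.52), Per3 (-1.49), Per1 (-1.08) and Clk1 (-0.98). Other list members with a called interaction, such as Hspa5 and Edn1, are given with their groups. Per3 was not called on chow itself. Saa2 and Clec4n were high in replicate 2 of chow ZT6.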

How the results depend on the processing

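Scaling by library size only gave 198 genes higher and 1238 lower at ZT6. Without a filter on low counts there were 1823 calls (711 higher, 1112 lower) and 1119 for the interaction with diet. A mean of at least 5 CPM gave 633 higher genes and 372 interaction calls. DESeq2 called 2125 genes (966 higher, 1159 lower) and 913 for the interaction. The chow libraries alone gave 200 calls (97 higher, 103 lower), of which 189 were among the 1071. Leaving out chow ZT18 replicate 1 and ZT0 replicate 2, which stand apart, gave 742 interaction calls. With a replicate block 995 genes were called. The labels share replicate numbers only, and the deviations of same-numbered libraries correlated at 0.055 and 0.023. Leaving out 1 library gave 88 to 813 calls, 37 to 277 higher, 51 to 536 lower and 35 to 222 interaction calls. The cause of these shifts was not tested.

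Signs changed only for genes that were not called, among the named genes. Arntl was -0.044 with library size only and -0.057 to 0.40 without 1 library. Arntl2 was 0.59 without the libraries that stand apart and -4.65 to 0.59 without 1 library. Without 1 library Tef ranged from -0.87 to 0.073, Bhlhe41 from -0.14 to 1.47 and Hlf from -0.20 to 0.60. The 2 libraries at ZT6 limit the precision, as do low counts for rare genes.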
